A study of Mus musculus with 17 samples.

Results

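The genes described here are Ctss, Ctsz, Ctsh, Ctsc, Ctso, Ctsw, Ctse and Napsa. They are a set of 8 proteases, most of them of the lysosome and endosome, that the study named in the diaphragm of mice with LLC tumors. They were found by symbol in the deposited expression table, which lists 47643 gene symbols. All 8 passed the filter on low values (at least 1 TPM in at least 3 mice), as did 13305 symbols in all. TPM is a read count divided by the length of the gene and scaled to a fixed sum per library, so that levels can be compared between genes.

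Each of 17 mice, all males of the C57BL/6J strain aged 4 months, gave 1 library of diaphragm RNA. Tumor-free mice received mock injections (Control, n = 5) or rFibcd1 (Control + rFibcd1, n = 5), and mice with tumors received mock injections (LLC, n = 3) or rFibcd1 (LLC + rFibcd1, n = 4). LLC tumors were grown from a mouse line, Lewis lung carcinoma cells, placed under the skin of both flanks, away from the muscle that was sequenced. rFibcd1 is a recombinant piece of mouse Fibcd1, a protein with a fibrinogen-like domain that cells release. It was given into the peritoneal cavity, which borders the diaphragm, and mock-injected mice received albumin in buffered saline by the same route. The comparisons ask whether a tumor raises the transcripts of these proteases in the diaphragm, and whether they are lower when rFibcd1 is given.

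Cathepsins are proteases, most of which are made as inactive precursors, are sorted to lysosomes and endosomes and are switched on there by the low pH. Ctss, Ctsz, Ctsh, Ctsc, Ctso and Ctsw encode cysteine proteases of the papain family, which cystatins and stefins inhibit, whereas Ctse and Napsa encode aspartic proteases. Several of them are best known from leukocytes, where they process antigens and activate the proteases of cytotoxic and myeloid granules. Lysosomal proteolysis is also one of the routes by which muscle loses protein in wasting.

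The libraries were close in depth, and 11557 to 13413 genes had at least 1 TPM. Per 1000 bases of a gene, 23.9 to 26.7 reads made 1 TPM. Markers of myofibers identified the tissue as muscle in every library. The summed level of the 8 myofiber markers lay between 47935 and 63098 TPM, and Acta1, skeletal muscle actin, alone held 19854 to 25160 TPM. Mitochondrially encoded transcripts, which enter the TPM sum, held a share of 47.1% ± 1.09 in Control (SD, n = 5) and of 42.9% ± 1.53 in LLC (SD, n = 3), and the 8 genes were also tested with these transcripts left out, where all 8 calls from Control to LLC were kept. The median change over all genes tested from Control to LLC was 0.16 (log2), 0.0055 after median-ratio scaling and -0.099 after quantile normalization. Some changes are therefore also given relative to that median, and the 8 genes kept a positive change and their call under each of these scalings.

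Before the values, the start regions of the genes are shown, since several of the transcripts varied together across mice. Promoter sequences of 4 of the genes were found in RefSeq (build GRCm38.p6), those of Ctss, Ctsc, Ctso and Ctsz. In the windows of 300 bases, 250 before and 50 after the start, 4 motifs were searched on both strands: GAGGAA, the core bound by the myeloid and B cell factor PU.1; the interferon-stimulated response element (a GAAA repeat spaced by NN); the CLEAR element of the lysosomal factor TFEB; and CACGTG, the E-box at its center. The sequences below run 5′ to 3′ along the strand of the gene and end 25 bases after the start, and capitals mark the matches. Ctss lies on the plus strand at chr3:95526536-95526810, Ctsc on the plus strand at chr7:88277835-88278109 and Ctso on the plus strand at chr3:81932351-81932625.

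Ctss: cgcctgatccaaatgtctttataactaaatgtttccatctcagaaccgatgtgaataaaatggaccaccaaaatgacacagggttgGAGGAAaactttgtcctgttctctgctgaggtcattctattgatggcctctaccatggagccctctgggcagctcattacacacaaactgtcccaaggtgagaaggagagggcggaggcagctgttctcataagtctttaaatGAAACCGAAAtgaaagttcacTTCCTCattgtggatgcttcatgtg

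Ctsc: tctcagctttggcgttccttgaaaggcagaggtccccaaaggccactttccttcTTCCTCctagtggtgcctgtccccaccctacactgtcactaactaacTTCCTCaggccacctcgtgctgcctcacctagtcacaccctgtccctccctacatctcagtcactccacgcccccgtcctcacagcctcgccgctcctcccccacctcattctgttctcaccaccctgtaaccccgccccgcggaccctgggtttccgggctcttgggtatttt

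Ctso: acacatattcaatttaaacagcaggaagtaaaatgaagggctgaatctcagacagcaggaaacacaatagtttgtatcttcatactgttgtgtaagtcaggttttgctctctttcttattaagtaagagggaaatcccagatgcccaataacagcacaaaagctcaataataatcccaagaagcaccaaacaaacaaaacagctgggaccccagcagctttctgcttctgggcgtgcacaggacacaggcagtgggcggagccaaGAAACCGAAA

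Ctss held GAGGAA on its own strand from position -164 to -159, the interferon element as GAAACCGAAA from -21 to -12 and TTCCTC, the reverse complement of GAGGAA, from 1 to 6, counted from the start at 1. Ctsc held TTCCTC from -196 to -191 and from -149 to -144. Ctso held GAAACCGAAA from 16 to 25 and an overlapping match, GAAAGAGAAA, from 22 to 31, which runs past the printed window. Ctsz held none of the 4 motifs. Over all 32851 windows of this length, GAGGAA was in 28.3%, the interferon element in 3.44%, CACGTG in 7.15% and the CLEAR element in 0.326%. A match says only that these letters are present.

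In Control diaphragm, the 8 genes spanned a wide range of levels. Ctsz led with a mean of 48.3 TPM, followed by Ctss (30.8), Ctsh (16.1), Ctsc (10.6), Ctso (7.15), Napsa (3.19), Ctse (0.607) and Ctsw (0.436). Between neighbours in this order, Ctsh lay above Ctsc and Ctsc above Ctso without overlap between mice, and the other neighbours overlapped. Cathepsins that most cells express were higher, with Ctsd at 527 TPM, Ctsb at 147 TPM and Ctsl at 139 TPM. Ctsw rested on an estimated 1 to 29 reads in the tumor-free mice, and Ctse on 3 to 51 reads in all of them but Control replicate 1, which held 160. In LLC the order changed. Ctss (94.9 TPM) and Ctsz (91.5 TPM) then overlapped at the top, and Napsa (16.5 TPM) overlapped Ctsc (18.2 TPM) and lay above Ctso (11.7 TPM) in all 3 mice.

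**Figure D1:**
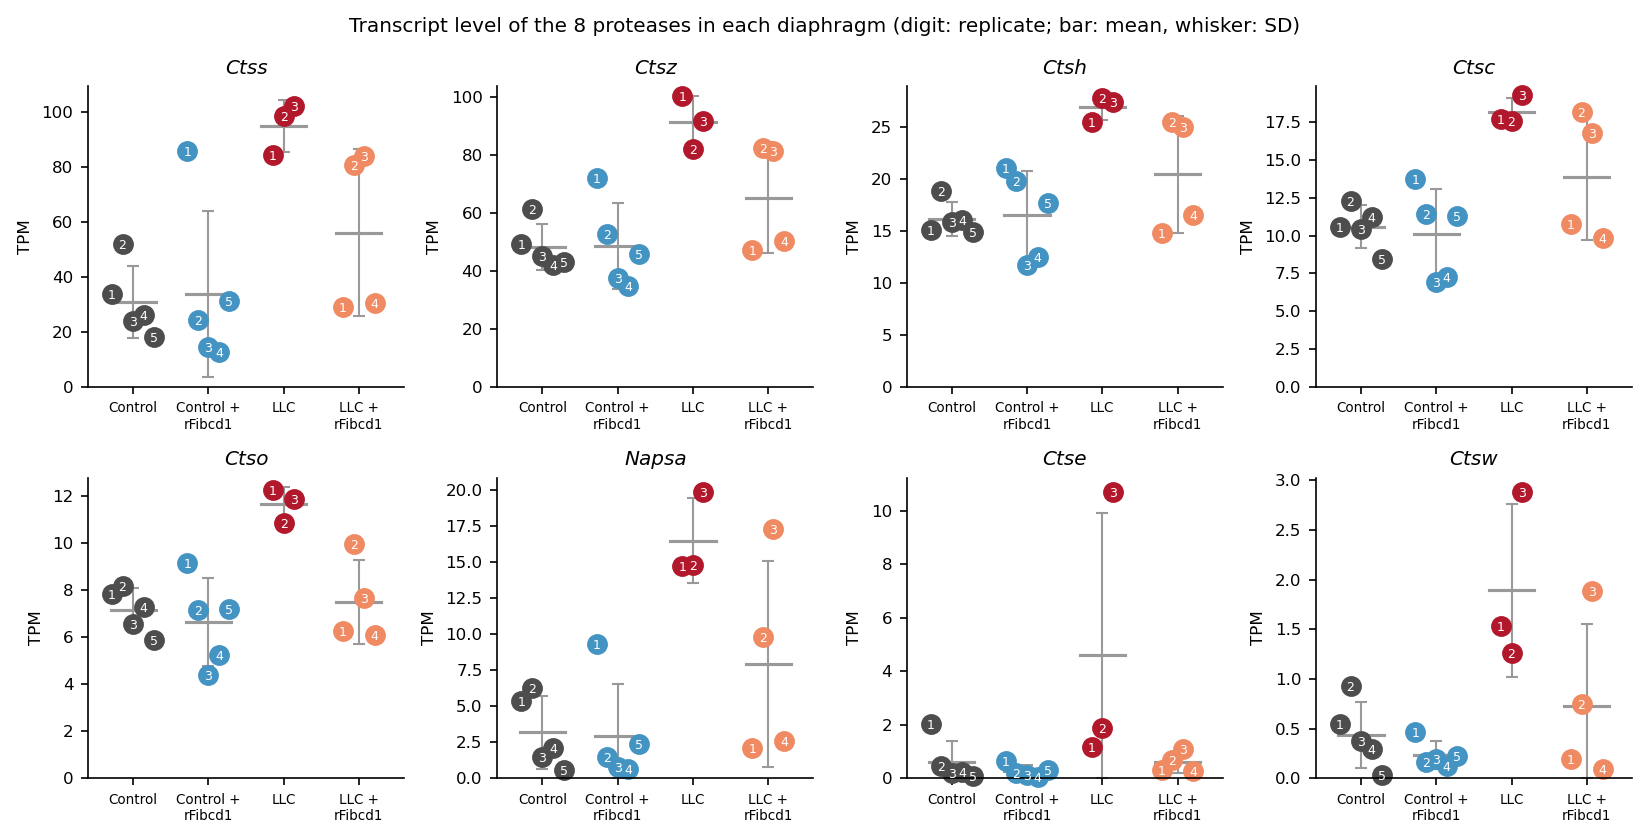
Level in TPM (linear axis from 0) of each of the 8 proteases in each of the 17 mice, by group; each point is a mouse with its replicate number, the bar is the group mean and the whisker the SD, which stops at 0 where it would pass it. The 3 LLC mice lie above all 5 Control mice in 7 of the 8 panels, the exception being Ctse, and the LLC + rFibcd1 mice are spread from the Control range into the LLC range in 5 panels (Ctsz, Ctsh, Ctsc, Napsa and Ctsw) and stay below it in those of Ctss, Ctso and Ctse.

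The comparison of LLC with Control came first. All 8 genes rose in LLC at an adjusted p under 0.05 (limma on log2(TPM + 1), Benjamini-Hochberg over all 13305 genes). Over all genes, 29.7% were called higher in this comparison, and the study chose these genes on the same mice, so the count is not independent evidence of their direction. The count was 0 of 8 without LLC replicate 3 (limma; 8 before adjustment) and 4 of 8 without LLC replicate 1, as detailed with the single genes. Ctse and Ctsw would have failed the filter without the 3 LLC mice, the group where they are high, so their calls give no support to the count. The other 6 genes, which pass it without those mice, were all called, with a median change of 0.83 (log2), against 0.16 for all genes. Napsa, Ctss and Ctse had the largest changes, and Ctso, Ctsh and Ctsc the smallest. In 7 of the 8 genes, every LLC mouse was above every Control mouse, as in 33.6% of all genes. In whole tissue, more cells of a type that expresses a gene and more of its RNA per cell cannot be told apart. The p-values measure the spread between these mice.

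The genes of antigen processing are given first. Ctss encodes cathepsin S, which cuts the invariant chain Cd74 from MHC class II in antigen-presenting cells and, unlike most of its relatives, stays active at neutral pH. The gene lies at chr3:95526786-95556403 on the plus strand (GRCm38, GENCODE vM21), and an annotated pseudogene, Hmgb1-ps5, overlaps it on the same strand. Its level was 33.9, 51.8, 24.0, 26.2 and 18.2 TPM in the Control mice, in the order of their numbers. It was 84.1, 98.5 and 102 TPM in the LLC mice. Every LLC mouse was above every Control mouse. Ctss rose by 1.67 ± 0.53 (log2, SE; adjusted p = 0.0260, limma), a 3.08-fold difference of means. Relative to the median gene, the change was 1.51.

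Ctsh encodes an aminopeptidase of the lysosome. It lies at chr9:90054152-90076089 on the plus strand. Control mice held 15.1, 18.8, 15.8, 16.0 and 14.8 TPM of Ctsh, and LLC mice held 25.4, 27.7 and 27.4 TPM. Both groups were narrow and did not overlap. Ctsh rose by 0.71 ± 0.20 (adjusted p = 0.0165, limma), and by 0.55 relative to the median gene. Ctsz encodes cathepsin X, a carboxypeptidase abundant in macrophages, and lies at chr2:174427493-174439039 on the minus strand, where it overlaps Nelfcd on the other strand. Ctsz was at 49.4, 61.5, 45.2, 42.2 and 43.2 TPM in Control mice and at 101, 82.3 and 91.7 TPM in LLC mice. The groups did not overlap, and the highest Control mouse was replicate 2, as for Ctss and Ctsh. Ctsz rose by 0.92 ± 0.23 (adjusted p = 0.0128, limma), the smallest adjusted p of the 8 genes.

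Ctsc encodes dipeptidyl peptidase I, which activates granzymes and several serine proteases of neutrophil and mast cell granules. It lies at chr7:88278085-88310888 on the plus strand, and Gm26522 overlaps it on the other strand. Control mice held 10.5, 12.3, 10.4, 11.2 and 8.48 TPM of Ctsc, and LLC mice held 17.7, 17.6 and 19.3 TPM. Ctsc rose by 0.73 ± 0.21 (adjusted p = 0.0197, limma), without overlap. Ctso, a less studied member of the family that is expressed in many tissues, lies at chr3:81932601-81956725 on the plus strand. Ctso was at 7.85, 8.20, 6.57, 7.27 and 5.87 TPM in Control mice and at 12.3, 10.8 and 11.9 TPM in LLC mice. The change of Ctso, 0.64 ± 0.18 (adjusted p = 0.0179, limma), was the smallest of the 8 genes.

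Ctsw encodes a cysteine protease known from natural killer cells and cytotoxic T cells. It lies at chr19:5465043-5468507 on the minus strand, where it overlaps Fibp on the other strand. Ctsw was low everywhere, at 0.549, 0.934, 0.373, 0.292 and 0.0336 TPM in Control mice and at 1.53, 1.26 and 2.88 TPM in LLC mice. These values rest on few reads, an estimated 1 to 29 in the Control mice and 39 to 86 in the LLC mice. Ctsw rose by 1.00 ± 0.28 (adjusted p = 0.0172, limma). It reached 1 TPM in 4 mice, of which 3 were LLC and 1 was LLC + rFibcd1, so the filter let it in through the LLC mice, where it is high.

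Among the aspartic proteases, Napsa encodes napsin A, best known from alveolar cells of the lung, where it processes a surfactant protein, and from the kidney. It lies at chr7:44572380-44586862 on the plus strand, and Gm15396 overlaps it on the other strand. Napsa was at 5.40, 6.31, 1.49, 2.14 and 0.607 TPM in Control mice and at 14.8, 14.8 and 19.9 TPM in LLC mice. The Control mice differed widely among themselves, replicates 1 and 2 being high and replicate 5 low. Napsa had the largest change of the 8 genes, 2.28 ± 0.67 (log2, SE; adjusted p = 0.0203, limma), and the groups did not overlap. Ctse encodes cathepsin E, a protease of endosomes that is known from immune cells and from epithelia such as that of the stomach. It lies at chr1:131638306-131675505 on the plus strand. Ctse was at 2.02, 0.475, 0.184, 0.252 and 0.104 TPM in Control mice and at 1.19, 1.89 and 10.7 TPM in LLC mice. LLC replicate 3 stood far above the rest, and Control replicate 1 lay above both other LLC mice, so the groups overlapped. Ctse rose by 1.5 ± 0.44 (adjusted p = 0.0201, limma), but by 0.76 without LLC replicate 3 (adjusted p = 0.130). Ctse reached 1 TPM in 5 mice, 3 LLC, 1 LLC + rFibcd1 and 1 Control, so it too passed the filter through the LLC mice.

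For the genes with few TPM, the scale matters. With a pseudocount of 0.1 TPM in place of 1 TPM, the change was 2.74 for Napsa, 2.66 for Ctse and 2.09 for Ctsw, and all 8 genes kept their call. Without LLC replicate 3, which leaves 2 LLC mice, none of the 8 genes passed (limma; all 8 had p under 0.05 before adjustment), and 24 genes did so in all. The changes themselves were near those with it, at 1.62 for Ctss, 0.91 for Ctsz and 2.14 for Napsa, with Ctse as the exception. Without LLC replicate 1, Ctsz, Ctsh, Ctse and Ctsw passed and the other 4 did not, with an adjusted p of 0.0618 for Ctss, 0.0546 for Ctsc, 0.0614 for Ctso and 0.0551 for Napsa (limma). The share of all genes called in that fit is not given here, so this count has no background to be set against. Ctss also missed the threshold without LLC replicate 2 (adjusted p = 0.0530) and without Control replicate 3 (0.0508) or 5 (0.0578). Dunn's rank test, which the study's methods name, gave 0 of 8 genes after adjustment, as for all genes, and 7 at an unadjusted p under 0.05, which 37.5% of all genes had.

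**Figure D2:**
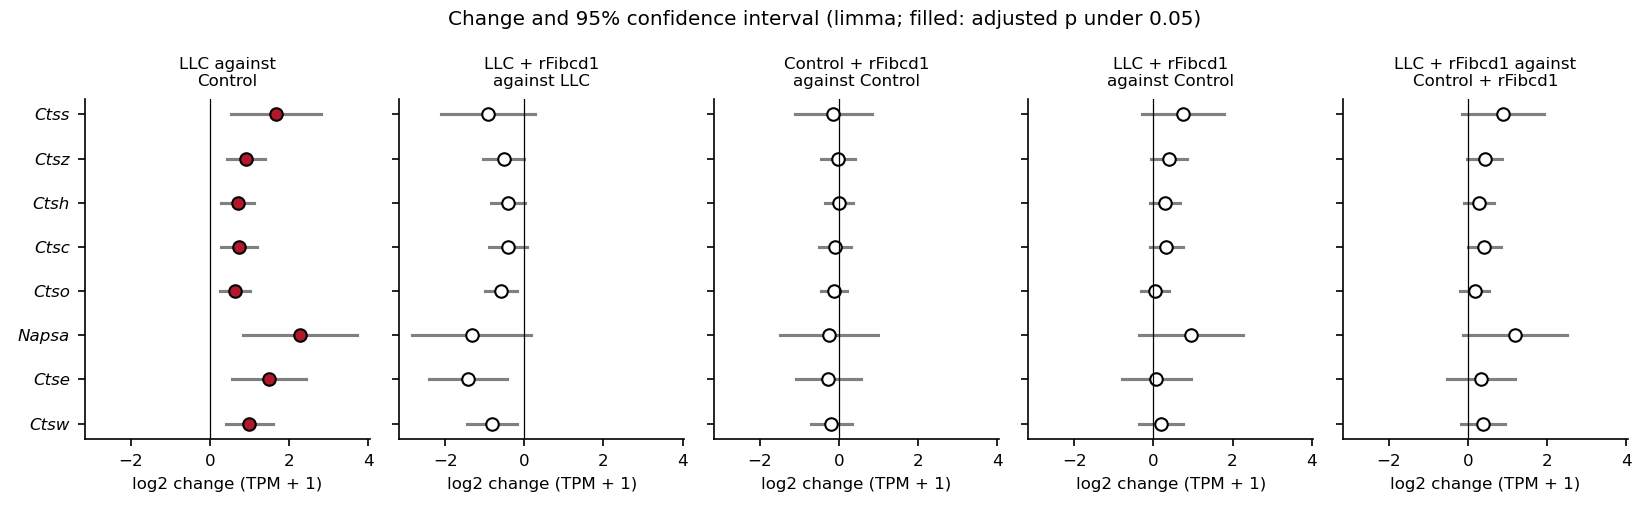
Change of each protease in 5 comparisons, as the difference of group means of log2(TPM + 1) with its 95% confidence interval from limma; filled points have an adjusted p under 0.05. All 8 points are filled in LLC against Control, from 0.64 for Ctso to 2.28 for Napsa, and none is filled in the other comparisons.

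The second question was whether rFibcd1 changed these genes in mice with tumors. Against LLC, none (0) of the 8 genes passed the adjusted threshold in LLC + rFibcd1 (limma), and 0.113% of all genes did (15 of 13305). All 8 had a mean change below 0, as did 73% of all genes. Ctsz, Ctso, Ctse and Ctsw had an unadjusted p under 0.05 for a lower level, which 17.3% of all genes had. The study named these genes on this contrast too, in the same mice, and Ctse and Ctsw pass the filter through the LLC mice, so this count is a description and not independent evidence of a direction. Of the 6 genes that pass it without those mice, Ctsz and Ctso are the ones counted. Dunn's test gave 0 after adjustment and 1 (Ctso) without, against 7.17% of all genes. The adjusted p ranged from 0.175 for Ctso to 0.293 for Ctss. This comparison uses the same LLC mice as the first one.

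The LLC + rFibcd1 mice were not alike. Ctss was at 28.9, 80.7, 83.9 and 30.5 TPM in replicates 1 to 4. Napsa was at 2.14, 9.78, 17.3 and 2.62 TPM in the same order. Replicates 2 and 3 were each above the highest Control mouse in 6 of the 8 genes, and replicates 1 and 4 in none. The share of all genes that lay so in each mouse is not given here. Ctsz was at 47.2, 82.5, 81.4 and 50.3 TPM, with replicates 2 and 3 again above 1 and 4, and replicate 2 was just above the lowest LLC mouse. Ctsh was at 14.7, 25.5, 24.9 and 16.5 TPM, and Ctsc at 10.8, 18.2, 16.8 and 9.86 TPM. In Ctsc, replicate 2 lay within the LLC range. Ctsw was at 0.190, 0.745, 1.89 and 0.0954 TPM, with replicate 3 above both lower LLC mice.

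For Ctss, Ctso and Ctse, all 4 LLC + rFibcd1 mice were below all 3 LLC mice, as in 9.3% of all genes, with the same limits on the choice of the genes and, for Ctse, on the filter. Ctso was at 6.25, 9.94, 7.67 and 6.08 TPM against 10.8 to 12.3 TPM in LLC. Its change was -0.60 (95% interval -1.0 to -0.19; unadjusted p = 0.00678, limma). Ctse was at 0.320, 0.692, 1.10 and 0.284 TPM against 1.19 to 10.7 TPM, and LLC replicate 3 was the highest. The change of Ctse was -1.42 (95% interval -2.41 to -0.44), and -0.68 without LLC replicate 3. For Ctss the change was -0.92 (95% interval -2.10 to 0.26) and for Napsa -1.33 (95% interval -2.83 to 0.17), intervals that hold both no change and a change as large as that from Control to LLC.

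**Figure D3:**
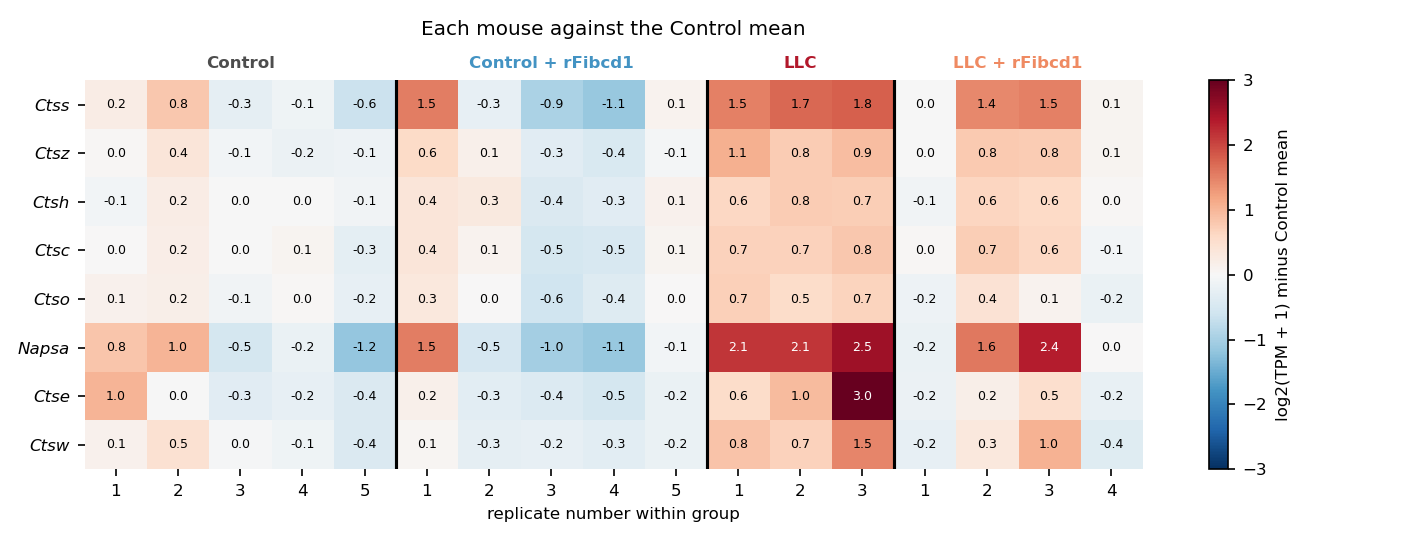
Level of each protease (rows) in each mouse (columns, by group and replicate number) as log2(TPM + 1) minus the mean of the 5 Control mice; red is above and blue below that mean. LLC mice are red in all rows, and Control + rFibcd1 replicate 1 and LLC + rFibcd1 replicates 2 and 3 are red in most rows, whereas LLC + rFibcd1 replicates 1 and 4 lie near 0.

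Without a tumor, rFibcd1 was followed by no called change. In Control + rFibcd1 against Control, 0 of the 8 genes passed (limma), as did 0% of all genes, and 0 passed without adjustment, against 4.39% of all genes; Dunn's test gave 0 at either level. The changes ranged from -0.26 for Ctse to 0.0022 for Ctsh. Their intervals were wide for the genes that vary most, from -1.12 to 0.84 for Ctss and from -1.49 to 0.99 for Napsa. They were narrower for Ctsh, from -0.36 to 0.36, and for Ctso, from -0.46 to 0.21. Control + rFibcd1 replicate 1 was the highest of its group in all 8 genes and above the highest Control mouse in 6 (share of all genes in that mouse not given here). Ctss was at 85.8, 24.1, 14.6, 12.5 and 31.2 TPM in the 5 mice of the group, in the order of their numbers, so that replicate 1 alone was within the LLC range. Napsa was at 9.32, 1.51, 0.753, 0.619 and 2.36 TPM, and Ctsz at 72.1, 52.9, 37.7, 34.7 and 46.0 TPM. Replicates 3 and 4 held the lowest Ctss, Ctsz, Ctsh, Ctsc, Ctso and Napsa of the group.

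Mice with tumors that received rFibcd1 were then set against mice without tumors, with the same Control and LLC + rFibcd1 mice as above. In LLC + rFibcd1 against Control, 0 of the 8 genes passed (limma; 3.08% of all genes did) and 0 passed without adjustment (19.9% did). On the TPM scale, the change of each of the 8 genes was above 0, as for 64.9% of all genes. It ran from 0.043 for Ctso to 0.94 for Napsa, with intervals of -0.31 to 0.40 and of -0.37 to 2.26. These directions depend on the scale, since Ctso and Ctse turned below 0 under some other scalings, as given at the end. The median over all genes here was 0.059, and 0.0094 after median-ratio scaling. Set against Control + rFibcd1, 0 of the 8 genes passed in LLC + rFibcd1 (limma; 8.06% of all genes did), and 0 passed without adjustment (28.5% did). All 8 changes were positive there, as were 76.6% of those of all genes, with a median of 0.40 against 0.11 for all genes. Without Control + rFibcd1 replicate 1, 2 of them passed, Ctss at 1.31 (adjusted p = 0.0322, limma) and Ctsz at 0.57 (adjusted p = 0.0457), and 2893 genes did so in all. Dunn's test gave 0 of 8 genes in both comparisons, adjusted or not.

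With all mice used, tumor-bearing against tumor-free, the 8 genes were all higher at an adjusted p under 0.05 (limma), as were 38.8% of all genes, and the limit on Ctse and Ctsw holds here too. The changes ran from 0.36 ± 0.12 for Ctso (adjusted p = 0.0276) to 1.64 ± 0.45 for Napsa (adjusted p = 0.0110), with 1.22 ± 0.36 for Ctss (adjusted p = 0.0141). The groups overlapped in every one of the 8 genes, and 1.74% of all genes were higher without overlap. Ctss, Ctsz, Ctsh, Ctsc and Napsa passed whichever of the 17 mice was left out, Ctsw passed in 16 of these fits, Ctso in 13 and Ctse in 8. The lowest count, 5 genes, came without LLC replicate 3, where Ctso, Ctse and Ctsw missed the threshold. The interaction asks whether rFibcd1 was followed by another change with a tumor than without. In it, 0 of the 8 genes passed (limma; 0% of all genes did) and 0 passed without adjustment (8.58% did), and all 8 estimates were below 0, as were 62.8% over all genes. The estimates of Ctss, -0.78 (95% interval -2.31 to 0.75), and of Ctso, -0.47 (95% interval -1.0 to 0.053), had wide intervals at these group sizes.

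Within groups, the genes varied together from mouse to mouse. Over the 17 mice, on deviations of log2(TPM + 1) from the group mean, Pearson's r over the 28 pairs of genes had a median of 0.82. It was 0.87 to 0.95 among Ctss, Ctsz, Ctsh, Ctsc and Ctso, and 0.95 between Ctss and Napsa. Ctse stood apart, with 0.29 to Ctsh and 0.43 to Ctss, and its highest r within the set was 0.64, to Ctsw. The points are mice, and the genes of a mouse share its library and its TPM scale. Control replicate 2 was the highest of its group in 7 of the 8 genes and Control replicate 5 the lowest in 7.

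The genes most like each protease, by the same r over 17 mice among all genes past the filter, were Cyba (0.99), Cotl1 (0.99) and Apbb1ip (0.99) for Ctss. They were Serp1, Psme2 and Irf5 (each 0.97) for Ctsz, and Cmah (0.97), Sirpa (0.95) and Lgmn (0.95) for Ctsh. For Ctsc they were 9930111J21Rik2 (0.97), Kctd12 (0.97) and Actr2 (0.97), and for Ctso Cndp2 (0.97), Tmem106a (0.97) and Skap2 (0.96). H2-DMb2 (0.995), Gimap3 (0.994) and Coro1a (0.994) were closest to Napsa, Coro2a (0.97), Slc14a1 (0.97) and Igsf9 (0.95) to Ctse, and Il4i1 (0.96), Cd27 (0.96) and Sit1 (0.96) to Ctsw.

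Markers of leukocytes moved with the proteases, in a comparison where 29.7% of all genes were called higher and 6.02% lower. That balance depends on the scaling, with 3958 genes higher and 801 lower on the TPM scale, 2480 and 1465 without mitochondrially encoded genes, 2078 and 1863 after median-ratio scaling, and 1510 and 3175 after quantile normalization. From Control to LLC, the summed level of 8 B cell markers went from 2.48 to 104 TPM over Control mice to 239.9 to 308 TPM over LLC mice, and all 8 markers were called higher. The 11 markers of monocytes and macrophages summed to 336 to 693 TPM in Control and 1053 to 1203 TPM in LLC, with 7 called higher. The 7 T cell markers went from 2.32 to 18.3 TPM to 31.4 to 51.2 TPM, all called higher. Cd8a of the T cell, Fcgr1 of the macrophage and Clec9a of the dendritic list pass the filter on low values only through the LLC mice, so their calls give no support to these counts. Markers of neutrophils (6 of 6 tested), plasma cells (3 of 5) and dendritic cells (3 of 4 tested) also rose, and for natural killer cells only Nkg7 of the 6 markers was high enough to be tested, and it rose. Mast cell, mesothelial and other epithelial markers gave 0 calls among 3 tested in each list (limma; 1, 0 and 0 at an unadjusted p under 0.05). Of the 6 alveolar markers only Abca3 was tested, and it was called higher (0.49 ± 0.11; adjusted p = 0.0113, limma), and 5 of the 8 myofiber markers were lower. Without LLC replicate 3, none of the markers was called (limma), although all 8 B cell, all 7 T cell and 7 of the 11 macrophage markers had an unadjusted p under 0.05, and the median change of the B cell markers was 2.48, against 2.60 with that mouse. B cell calls also fell to 0 without LLC replicate 1 and to 4 without LLC replicate 2, and macrophage calls to 0 and 1. The T cell calls fell to 3 without LLC replicate 1, and those of plasma cells to 1 without either of these mice. Among Control mice, leaving out replicate 5 left 1 B cell, 3 T cell and 1 macrophage call, replicate 3 left 4, 4 and 1, replicate 4 left 4 B cell and 1 macrophage call, and replicate 1 left 4 macrophage calls. Under the other scalings, 4 to 8 B cell, 6 or 7 T cell and 3 to 5 macrophage markers were called. The part of these cells in the protease changes was not tested.

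The proteases differed in which markers they followed. Ctss followed the macrophage markers (r = 0.93, against their mean log2 level) about as closely as the B cell markers (0.92). Napsa followed the B cell markers most closely (0.99), and the macrophage markers less (0.79). Ctsw followed natural killer (0.95) and T cell markers (0.93), and macrophage markers less (0.40). Ctso followed macrophage markers (0.91) more than T cell markers (0.66). For neutrophil markers, r was between -0.023 and 0.23 for all 8 genes. Against the myofiber markers r was negative for all 8, from -0.85 for Ctsz to -0.43 for Ctse. Because the lists also move with each other, a higher r to one list does not assign a gene to that cell type.

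**Figure D4:**
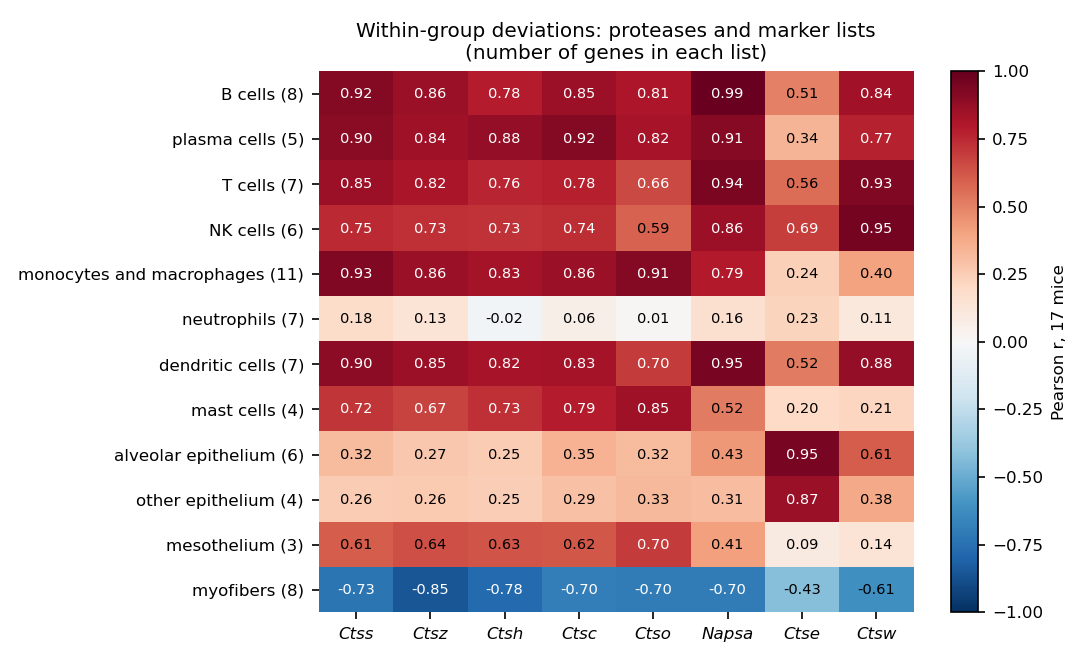
Pearson's r over 17 mice between each protease (columns) and the mean log2(TPM + 1) of each marker list (rows, with the number of genes), on deviations from the group means; red is positive and blue negative. Napsa is high with B cells (0.99) and also with dendritic (0.95) and T cells (0.94), Ctsw with NK (0.95) and T cells (0.93), Ctss with several leukocyte lists and Ctse with alveolar epithelium (0.95), and the neutrophil row runs from -0.023 to 0.23. Of the alveolar list, Sftpd was found only in LLC replicate 3 and Control replicate 1, the mice highest in Ctse.

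**Figure D5:**
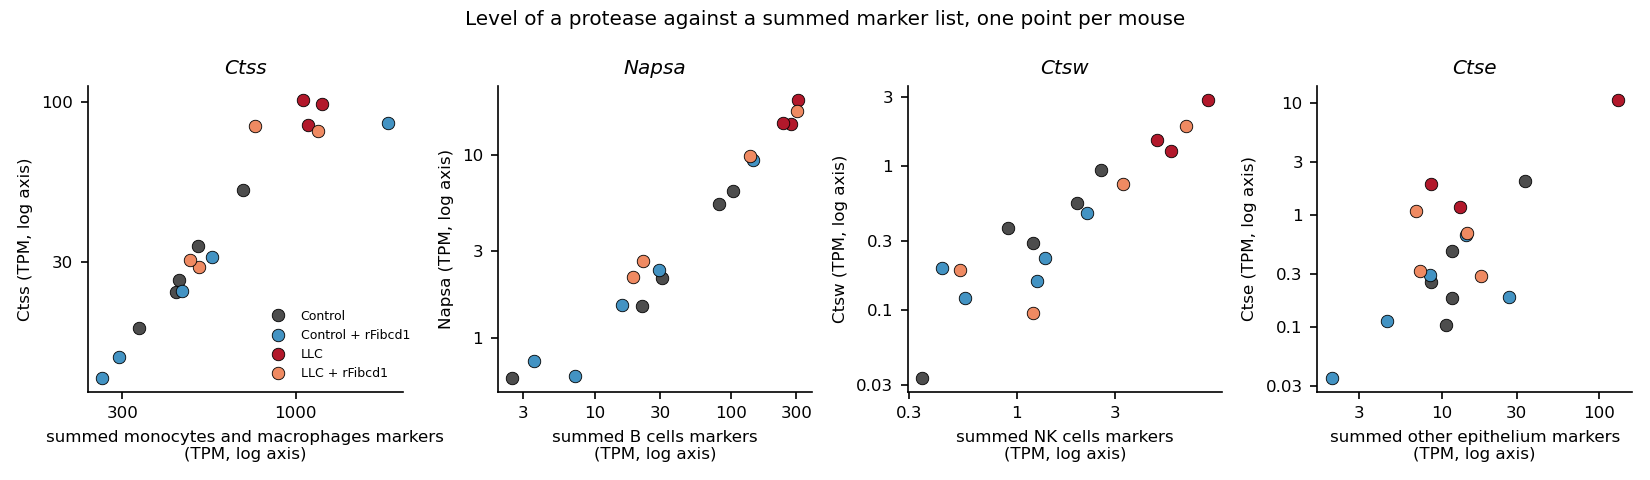
Level of a protease (vertical, TPM, log axis) against the summed level of a marker list (horizontal, TPM, log axis), 1 point per mouse, colored by group. Napsa rises with B cell markers and Ctsw with NK cell markers over all groups, Ctss rises with macrophage markers, and for Ctse the mice with the highest epithelial sums, LLC replicate 3 at 132 TPM and Control replicate 1 at 34.2 TPM, also hold the highest Ctse.

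The same mice stood high in both. In LLC + rFibcd1, B cell markers summed to 18.9, 136, 304 and 22.7 TPM in replicates 1 to 4, and macrophage markers to 511, 1167, 752 and 479.9 TPM. Control + rFibcd1 replicate 1 held 145 TPM of B cell and 1900.3 TPM of macrophage markers. Lyz2, the lysozyme of myeloid cells, made up 1459 TPM of the latter, and the other 10 macrophage markers summed to 441 TPM, within the 374 to 458 TPM of the LLC mice. Lyz2 was the larger part of the macrophage sum in the other mice too, such as 314 of 507 TPM in Control replicate 1 and 691 of 1092 TPM in LLC replicate 1. Set against the summed macrophage markers, Ctss was at -4.02 ± 0.20 in Control (log2 of the ratio, SD, n = 5) and at -3.56 ± 0.17 in LLC (SD, n = 3). The lowest LLC value, -3.70, was only just above the highest Control value, -3.74. The same ratio went from -3.30 to -3.61 for Ctsz, from -4.87 to -5.38 for Ctsh, from -5.48 to -5.94 for Ctsc and from -6.05 to -6.58 for Ctso, a lower value in LLC for each. For Napsa the ratio to macrophage markers went from -7.67 ± 1.05 to -6.09 ± 0.33, and its ratio to B cell markers from -3.55 ± 0.85 to -4.06 ± 0.13. Without Control replicate 5, which held 2.48 TPM of B cell markers, the latter ratio was -3.93 ± 0.076 in Control (SD, n = 4). With the mean of the B cell markers as a covariate, 0 of the 8 genes passed from Control to LLC and 10 genes did in all, and with that of the macrophage markers 0 of 8 and 0 in all (limma). Before adjustment, 0 and 2 of the 8 had p under 0.05 in these fits (limma). Both marker sums lay apart in Control and LLC without overlap, so each covariate takes up much of the group difference. These fits cannot separate markers from group, and the part of these cells in the protease changes was not tested.

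Ctse followed other markers. Its r was 0.95 to the alveolar list and 0.87 to other epithelial markers, against 0.24 to macrophage markers. LLC replicate 3 and Control replicate 1 held the highest Ctse and the only Sftpd of the alveolar list. The r to the alveolar list therefore rests largely on these mice, and its value without them is not given here. In LLC replicate 3, which held 10.7 TPM of Ctse, Epcam was at 15.4 TPM, Cdh1 at 15.1 TPM and Krt8 at 59.4 TPM, and in Control replicate 1, with 2.02 TPM of Ctse, they were at 3.00, 2.64 and 15.6 TPM. Epcam was at 0.761 TPM or less in the other mice. Control + rFibcd1 replicate 2 had the next epithelial sum, 26.9 TPM, with Krt8 at 14.1 TPM and Cdh1 at 1.22 TPM, but held 0.186 TPM of Ctse. The defining alveolar markers were at or near 0, with Sftpb at most at 0.0813 TPM, Sftpa1 at 0.0407 TPM, Sftpc at 0.386 TPM and Nkx2-1 at 0.0138 TPM. Sftpd was found at 4.46 TPM in LLC replicate 3 and 0.810 TPM in Control replicate 1 and at 0 in the other mice. Napsa, which is known from alveolar cells, was at 14.8 TPM in LLC replicates 1 and 2 with Sftpa1, Sftpb, Sftpc, Sftpd and Nkx2-1 all at 0. The part of epithelial cells in the level of Ctse was not tested.

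The other genes of these pathways were then counted by list, in LLC against Control, where 29.7% of all genes were called higher. Without LLC replicate 3, 0 genes were called in any of the 7 lists (limma), while 11 of the 11 MHC class II genes and 15 of the 19 lysosome genes had an unadjusted p under 0.05. Without LLC replicate 1, 8 MHC class II genes were called, 1 other cathepsin, 2 genes of enzyme sorting and none (0) of the granule proteases. After quantile normalization, 2 cystatins and stefins and 1 gene of enzyme sorting were called higher, and the 11 MHC class II genes kept their calls in each of the 3 other scalings. The MHC class II list, the pathway in which Ctss acts, had 11 of 11 genes called higher, with a median change of 1.67, led by H2-DMb2 (2.60 ± 0.82; adjusted p = 0.0259, limma) and H2-Oa (2.35 ± 0.65; adjusted p = 0.0167). Cd74, the invariant chain that Ctss cuts, went from 285 ± 92.9 TPM in Control (SD, n = 5) to 927 ± 87.1 TPM in LLC (SD, n = 3), and was at 509 ± 337 TPM in LLC + rFibcd1 (SD, n = 4). Of the granule serine proteases listed as possible targets of Ctsc, 5 of 10 were high enough to be tested and 1 was called. It was Prtn3, a neutrophil protease, at 1.45 ± 0.42 (adjusted p = 0.0195, limma). Cma1, a mast cell chymase, was at 0.56 ± 0.39 (adjusted p = 0.259). Gzma, Gzmb, Gzmk, Elane and Ctsg were below the filter.

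Inhibitors of the cysteine cathepsins were also higher. Of the cystatins and stefins, 4 of 5 tested were called higher, led by Cst7 (1.21 ± 0.28; adjusted p = 0.0113, limma), the leukocyte cystatin, which went from 0.432 to 2.30 TPM and passes the filter only through the LLC mice. Cstb, stefin B, went from 33.5 to 57.3 TPM (0.77 ± 0.19; adjusted p = 0.0128). Among the cathepsins outside the set, 3 of 6 tested were called higher, Ctsb by 0.45 ± 0.13 (adjusted p = 0.0182) and Ctsa by 0.45 ± 0.074 (adjusted p = 0.00734), as well as Ctsl. The median change of that list was 0.20, near the 0.16 of all genes. Of other lysosomal peptidases, 3 of 6 tested were called higher, with Prcp at 0.92 ± 0.22 (adjusted p = 0.0114) and Scpep1 at 0.71 ± 0.20 (adjusted p = 0.0185).

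The lysosome itself was represented by 19 genes for its membrane, enzymes, pump and transcription factors. Of these, 14 were called higher and 1, Tfeb, lower, with a median change of 0.32. The count of 14 was 8 after median-ratio scaling, 9 without mitochondrially encoded genes or after quantile normalization, and 6 without LLC replicate 1. Npc2, a cholesterol carrier of the lysosome, rose by 0.83 ± 0.28 (adjusted p = 0.0349, limma) and Lipa, the acid lipase, by 0.77 ± 0.15 (adjusted p = 0.00942). Of the genes that sort enzymes to the lysosome, 4 of 6 were called higher, including M6pr, a mannose 6-phosphate receptor (0.57 ± 0.13; adjusted p = 0.0119), while Sort1 changed by 0.57 ± 0.23 (adjusted p = 0.0644). From LLC to LLC + rFibcd1, 0 genes were called in any of these 7 lists (limma), and 8 of the 11 MHC class II genes, 4 of the 6 peptidases tested and 4 of the 19 lysosome genes had an unadjusted p under 0.05, as did 22.7% of all genes. In LLC + rFibcd1 against Control + rFibcd1, where none of the 8 proteases passed, Ctsa and Ctsl were called higher, as were 5 of the 19 lysosome genes and 5 of the 6 neutrophil markers tested, against 7.02% of all genes. Stfa2l1 of the 5 cystatins and stefins and Igf2r of the 6 sorting genes were also called higher. The MHC class II genes (11), the other peptidases (6) and the granule proteases (5) gave 0 calls there (limma; 3, 2 and 0 at an unadjusted p under 0.05). The B cell, T cell and macrophage markers gave 0 calls too, and 0 at an unadjusted p under 0.05 (limma). All counts of this comparison include Control + rFibcd1 replicate 1, without which Ctss and Ctsz passed. The list counts without that mouse are not given here.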

How the data were processed

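Diaphragm RNA of 17 mice was sequenced as 1 library each, and the authors deposited 1 table of TPM values per gene symbol, made per the study's methods with CLC Genomics Workbench on mm10 (GRCm38). Whether counting used the strand is not given in the sources used here. Values of genes that overlap another gene on the other strand (Ctsz, Ctsc, Napsa, Ctsw) are uncertain to that degree. The overlap of Ctss is on the same strand, so its value is uncertain whether or not the strand was used. Groups were taken from the labels. Since TPM are not counts, log2(TPM + 1) was tested with limma 3.58.1 (R 4.3.3, empirical Bayes with trend, 1 model of 4 group means) over 13305 of 47643 symbols (1 TPM or more in 3 or more mice), with Benjamini-Hochberg adjustment and a threshold of 0.05, in 7 contrasts. Symbols were matched to GENCODE vM21 (94.6%). The depth was estimated from low TPM values, of which 82.2% to 85.7% lay within 0.02 of a whole read, against 4% by chance, and estimated reads cover counting only. The scripts were tested on simulated data.

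The 8 genes are all described. Pathway and marker lists are given by counts, with the leading genes by change, and the genes most like each protease are the 3 with the highest r. The members and lists were chosen with earlier results of these data known. Alternatives were other pseudocounts, filters and scalings, Dunn's test, marker covariates, a replicate block and leaving out each mouse. The list counts without each mouse and under other scalings, the Napsa ratio without Control replicate 5 and the macrophage sum without Lyz2 were added after seeing the data.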

Additional observations from a re-analysis of the deposited data

Results flagged for a closer look

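In 60 sets of values (8 proteases and 12 marker lists in the 3 groups of 4 or 5 mice), 9 held a mouse far from the others of its group by Dixon's criterion. Chance gives about 5% in independent sets of normally distributed values. These sets hold TPM of genes and lists that vary together, and most of the 9 fell on the same mouse, so the 5% is no strict yardstick. Control + rFibcd1 replicate 1 held 85.8 TPM of Ctss, against 12.5 to 31.2 TPM in the other mice of its group, and 9.32 TPM of Napsa, against 0.619 to 2.36 TPM. The same mouse stood apart in the summed markers of B cells (145.0 TPM, others 3.59 to 29.3), T cells (19.4 TPM, others 1.75 to 5.73), monocytes and macrophages (1900.0 TPM, others 261 to 558) and dendritic cells (11.7 TPM, others 3.76 to 5.18). Of its macrophage sum, 1459 TPM was Lyz2 alone. Control replicate 1 held 2.02 TPM of Ctse, against 0.104 to 0.475 TPM in the other Control mice, and 34.2 TPM of epithelial markers, against 8.61 to 11.6 TPM. Control replicate 2 held 279.0 TPM of plasma cell markers, against 7.32 to 64.1 TPM.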

How the results depend on the processing

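From Control to LLC, the 8 genes passed under the scalings and the pseudocount tried, and 5 passed (of 5 tested) with at least 1 TPM asked in every sample. The shares of all genes called with that pseudocount and with that filter are not given here. The count was 0 with the B cell or the macrophage markers as a covariate, 0 by Dunn's test and 0 with a replicate block, and 0 to 8 without a mouse. Of 13305 genes, 10, 0, 0 and 5 were called in these 4 fits, in the order B cell, macrophage, Dunn and block, so the 0 is not particular to these genes. Both marker sums lay apart in Control and LLC without overlap, so the covariates take up much of the group difference. For all tumor-bearing mice, 5 passed with at least 1 TPM in every sample, 5 after quantile normalization, 3 with the replicate block, 0 with either covariate and 5 to 8 without a mouse. Over all genes, 1819 were called higher after quantile normalization, 3294 with the block, and 447 and 672 with the B cell and macrophage covariates. The replicate numbers gave no sign of a pairing of mice. Of 22 pairs with the same number, 4 had r over 0.1, with a median of -0.061, against -0.026 for other pairs. With so few mice per group, this cannot exclude a pairing. In LLC + rFibcd1 against LLC, 3 genes (Ctso, Ctse and Ctsw) had an unadjusted p under 0.05 (limma) and a change over 50%. The 50% is counted from the lower of the levels, so a fall by 50% was not required. Of all genes, 4.1% met this rule (either direction), and Ctse and Ctsw pass the filter through the LLC mice. For LLC + rFibcd1 against Control + rFibcd1, 0 to 2 passed without a mouse. The cause was not tested.

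Signs that turned belong to changes without a call. With B cell markers as a covariate, LLC + rFibcd1 against LLC gave 0.11 for Ctss and 0.071 for Napsa. In Control + rFibcd1 against Control, that covariate gave 0.12 for Ctss, 0.079 for Ctsz, 0.0029 for Ctsc and 0.096 for Napsa, and Ctsz was 0.051 after median-ratio scaling and 0.015 after quantile normalization. Without a mouse, the range there was -0.56 to 0.11 for Ctss, -0.17 to 0.084 for Ctsz, -0.089 to 0.11 for Ctsh, -0.20 to 0.019 for Ctsc and -0.70 to 0.0066 for Napsa. In LLC + rFibcd1 against Control, Ctso was -0.010 (median-ratio), -0.0032 (without mitochondrial genes), -0.035 (quantile), -0.094 (B cell covariate) and -0.14 (macrophage covariate), with -0.087 to 0.12 without a mouse. Ctse there was -0.036 (quantile), -0.13 (B cell) and -0.044 (macrophage), with -0.067 to 0.33 without a mouse, and Ctsw was -0.027 (B cell), with -0.096 to 0.37. Against Control + rFibcd1, Ctso was -0.046 (B cell) and -0.027 (macrophage). The interaction of Ctss was 0.063 with macrophage markers. Depth limits Ctse (3 to 818 reads) and Ctsw (1 to 86 reads).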
